A study of Mus musculus with 31 samples.

Results

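The RNA levels of 8 genes were followed in tumours of the mouse mesothelioma line AB1-mCherry: Bap1, Setd2, Trp53, Cdkn2a, Cdkn2b, Nf2, Lats1 and Lats2. They are the tumour suppressors that mesotheliomas most often lose or mutate, together with the kinases of the Hippo pathway, and were picked by symbol. All 8 were among the 54456 genes listed for whole tumours, and 6 were among the 12461 entries listed for sorted cancer cells. Cdkn2a and Cdkn2b had no entry in the sorted cell table used here. The 31 libraries came from untreated female BALB/c mice aged 12 weeks, with tumours collected on day 10. Whole tumours were taken from the pleural space (n = 6), the peritoneal space (n = 5) and the subcutaneous space (n = 5). Cells negative for the leukocyte antigen CD45 and positive for mCherry were sorted from tumours at the same 3 sites (n = 5 each). The labels give most mouse names for both a whole tumour and a sorted library. Whole tumours and sorted cells therefore cannot be taken as separate sets of mice.

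The implanted cells were not a fresh isolate: the brightest mCherry cells of the line had been sorted and expanded in culture, and every mouse of every group received this derivative. AB1 was derived from an asbestos-induced mesothelioma of a BALB/c mouse. A whole tumour also holds host stromal, immune and mesothelial cells, which carry their own copies of each gene. In such bulk RNA, fewer cells of a type and less RNA per cell cannot be told apart. Values are TPM, transcript abundances scaled to a common library total, a per-length scale that keeps no record of sequencing depth, so the depth behind each value is unknown. Log2 fold changes (log2FC) are differences of mean log2(TPM + 1), which understates the change of transcripts near 1 TPM. The 2 tables were normalised separately and were not tested against each other.

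Mesothelioma is a cancer of the lining of the pleura and peritoneum that is driven mostly by loss of suppressor genes. BAP1 is a nuclear deubiquitinase that removes ubiquitin from histone H2A. SETD2 trimethylates histone H3 at lysine 36. CDKN2A encodes p16INK4a, which inhibits CDK4 and CDK6, and in another reading frame ARF, which restrains MDM2 and so stabilises p53. CDKN2B encodes the related inhibitor p15INK4b. NF2 encodes merlin, which activates the Hippo kinases LATS1 and LATS2, and these phosphorylate and retain YAP and TAZ in the cytoplasm.

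The labelled identity of the samples was checked against marker genes. Mesothelin (Msln), a surface antigen of mesothelioma, averaged 249, 241 and 166 TPM in pleural, peritoneal and subcutaneous sorted cells. Of 14 mesothelial markers, 4 had an entry for sorted cells (Msln, Krt8, Krt18 and Pdpn), and Wt1, Upk3b, Lrrn4 and Calb2 were among the 10 with none. All 8 fibroblast markers had one, and their summed level was 2553 to 6142 TPM over the sorted libraries. The summed level of leukocyte markers was 21.6 to 77.0 TPM in pleural sorted cells, 29.4 to 85.5 TPM in peritoneal ones and 25.7 to 744 TPM in subcutaneous ones. Subcutaneous sorted libraries 1 and 2 held 12.9 and 7.48 TPM of Ptprc (CD45), the highest values of that table. Peritoneal sorted libraries 2 and 5 had the fewest genes at 1 TPM or more, 11807 and 11557, and the lowest median level of tested genes, 13.7 and 12.4 TPM. Fold changes of Trp53, Bap1, Nf2, Lats1 and Lats2 in peritoneal against subcutaneous cells are given with and without peritoneal libraries 2 and 5. The fit without subcutaneous libraries 1 and 2 is given for Trp53 alone.

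Levels, which TPM gives per transcript length, differed widely between the 8 genes in whole tumours. Trp53 stood highest, above 93.0% of the 15054 genes tested, followed by Nf2 (77.6%), Bap1 (70.3%), Setd2 (67.4%), Lats1 (55.0%) and Lats2 (52.1%). Cdkn2a and Cdkn2b stood above only 9.49 and 8.62% of them. Averaged over the 16 whole tumours, Trp53 measured 140.2 TPM, Nf2 47.95, Bap1 34.9, Setd2 30.9, Lats1 19.2, Lats2 17.1, Cdkn2a 1.48 and Cdkn2b 1.39 TPM. In that order neighbouring ranges overlapped for Bap1 and Setd2, for Lats1 and Lats2, and for Cdkn2a and Cdkn2b. In the 15 sorted libraries the means were 126 TPM for Trp53, 40.5 for Nf2, 25.9 for Bap1, 23.7 for Setd2, 18.3 for Lats1 and 14.2 for Lats2. The order of the 6 genes was therefore alike in the 2 tables.

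**Figure D1:**
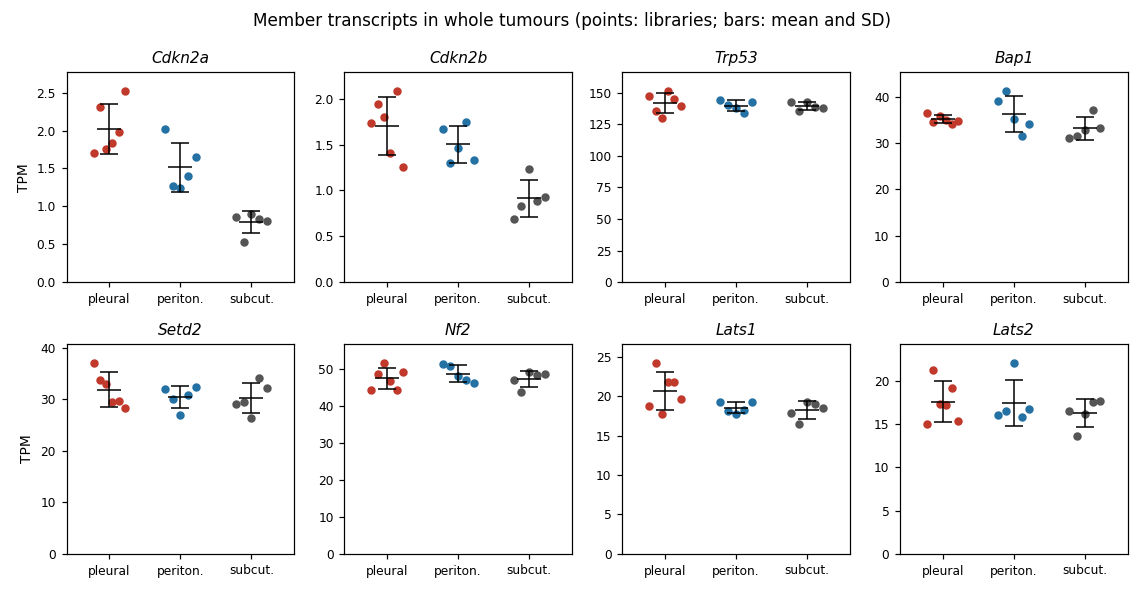
TPM of the 8 genes in every whole tumour, by site (pleural n = 6, peritoneal n = 5, subcutaneous n = 5); points are libraries, bars the mean and SD, and each vertical axis starts at 0. Cdkn2a lies between 1.70 and 2.52 TPM in pleural and between 0.537 and 0.906 TPM in subcutaneous tumours, whereas the sites overlap for Trp53, Bap1, Setd2, Nf2, Lats1 and Lats2.

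Whole tumours at the 2 serosal sites were compared with subcutaneous ones, the question being whether the growth site changes the level of these genes. Of the 8 genes tested, 2 were higher and 0 lower in pleural than in subcutaneous tumours at an adjusted p below 0.05. Of all tested genes, 9.40% were higher and 3.40% lower there, 12.8% in either direction. The same 2, Cdkn2a and Cdkn2b, were higher in peritoneal than in subcutaneous tumours. In that comparison 8.52% of all tested genes were higher and 3.64% lower, 12.2% in either direction. Both genes entered the test only through the serosal tumours, as described below. Both comparisons use the same 5 subcutaneous libraries. Between pleural and peritoneal tumours 0 of the 8 were called, against 0.0531% of all tested genes (0.0266% higher and 0.0266% lower), and the groups overlapped for each of the 8, against 1.14% of tested genes without overlap. By limma, Cdkn2a alone had an unadjusted p below 0.05 there. The p-values measure the spread between these mice.

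Cdkn2a had 1.70, 1.91 and 2.52 TPM as the lowest, median and highest of the 6 pleural tumours. The peritoneal tumours held 2.02, 1.27, 1.24, 1.41 and 1.66 TPM. The subcutaneous tumours held 0.860, 0.537, 0.906, 0.841 and 0.812 TPM. Every pleural and every peritoneal value was above every subcutaneous one, and pleural and peritoneal values overlapped. The means were 2.02 ± 0.329 TPM in pleural (SD, n = 6), 1.52 ± 0.324 TPM in peritoneal (n = 5) and 0.791 ± 0.146 TPM in subcutaneous tumours (n = 5). The pleural mean was 2.55 times the subcutaneous one (log2FC 0.75, SE 0.11, limma adjusted p = 0.000696). The peritoneal mean was 1.92 times the subcutaneous one (log2FC 0.49, SE 0.11, adjusted p = 0.0123). The difference between pleural and peritoneal tumours did not pass the test (log2FC 0.26, 95% interval 0.04 to 0.49, adjusted p = 0.370).

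Cdkn2b, the neighbouring gene, followed the same order of sites. Its lowest, median and highest pleural values were 1.25, 1.77 and 2.08 TPM. The peritoneal tumours held 1.67, 1.30, 1.46, 1.74 and 1.33 TPM, and the subcutaneous tumours 0.694, 0.828, 1.23, 0.884 and 0.925 TPM. Neither serosal group overlapped the subcutaneous group, but the gap was small, with subcutaneous replicate 3 at 1.23 TPM just under the lowest pleural value. Means were 1.70 ± 0.316 TPM in pleural (SD, n = 6), 1.50 ± 0.199 TPM in peritoneal (n = 5) and 0.912 ± 0.199 TPM in subcutaneous tumours (n = 5). Pleural tumours were higher than subcutaneous ones by a log2FC of 0.50 (SE 0.10, limma adjusted p = 0.00894), a ratio of means of 1.86. Peritoneal tumours were higher by 0.39 (SE 0.11, adjusted p = 0.0305), a ratio of 1.65. That peritoneal call was lost when subcutaneous tumour 1, 2, 4 or 5 or peritoneal tumour 1, 3 or 4 was left out, with adjusted p between 0.0525 and 0.0702. The shares of all tested genes without overlap were 7.76% for pleural against subcutaneous and 12.5% for peritoneal against subcutaneous tumours.

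Both transcripts lay close to the limit of what was tested. A gene was tested when at least 5 libraries reached 1 TPM, and among subcutaneous tumours 0 of 5 did so for Cdkn2a and 1 of 5 for Cdkn2b. Both therefore entered the test only through the pleural and peritoneal tumours, the groups in which they were high. Their own tests are not free of that selection, and their 2 calls are not evidence about the other 6 genes. Under a filter of 5 TPM neither gene is tested.

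Some mesothelial marker RNA was also higher at the serosal sites. Of 11 mesothelial markers tested, 5 were higher and 1 lower in pleural tumours than in subcutaneous ones, and 8 were higher and 1 lower in peritoneal ones. Wt1, a transcription factor of mesothelium, averaged 3.47 TPM in pleural, 3.85 TPM in peritoneal and 0.728 TPM in subcutaneous tumours. Upk3b, a membrane protein of mesothelial cells, averaged 1.10 TPM in pleural, 1.92 TPM in peritoneal and 0.00171 TPM in subcutaneous tumours. Krt8, a keratin, averaged 5.31 TPM in pleural, 28.02 TPM in peritoneal and 5.85 TPM in subcutaneous tumours. Msln averaged 235 TPM in pleural, 186 TPM in peritoneal and 208 TPM in subcutaneous tumours and was not called. Podoplanin (Pdpn), at 44.1 TPM in pleural, 49.0 TPM in peritoneal and 59.0 TPM in subcutaneous tumours, was the marker called lower at both serosal sites. Between pleural and peritoneal tumours 0 of the 11 markers were called by limma (median log2FC -0.40). Cdkn2a (0.26) and Cdkn2b (0.11) were not called there either. The summed level of all 14 markers was 250 to 363 TPM in pleural, 277 to 365 TPM in peritoneal and 248 to 308 TPM in subcutaneous tumours. Leukocyte markers summed to 1978 to 3479 TPM in pleural, 1668 to 2890 TPM in peritoneal and 2132 to 3488 TPM in subcutaneous tumours. Of 12 leukocyte markers, 1 was lower in pleural and 3 in peritoneal tumours against subcutaneous ones, and 0 were higher. Skeletal muscle markers reached 61.6 to 1196 TPM in subcutaneous tumours, against 5.62 to 634 TPM in pleural and 5.72 to 10.8 TPM in peritoneal ones, and 5 and 7 of 7 were called lower in pleural and peritoneal tumours. Pleural tumours 3 and 5 stood apart with 305 and 634 TPM, and the other 4 lay between 5.62 and 8.96 TPM. Without those 2 tumours Cdkn2a and Cdkn2b were still called in pleural against subcutaneous tumours. That fit keeps the muscle RNA of the subcutaneous tumours, so it cannot show what part muscle has in the difference. The part of mesothelial, leukocyte or muscle cells in the Cdkn2a and Cdkn2b differences was not tested.

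Cdkn2a and Cdkn2b lie side by side on mouse chromosome 4, on the minus strand. Cdkn2a has 2 starts, an upstream one for ARF and a downstream one for p16INK4a, and a gene-level TPM does not tell which product was measured. The 250 bases before each start are shown because these neighbours were the only members that differed by site in whole tumours. They are RefSeq sequences of build GRCm38.p6, at chr4:89294620-89294869 for the ARF start, chr4:89282193-89282442 for the p16INK4a start and chr4:89311033-89311282 for Cdkn2b, all written 5′ to 3′ on the gene's strand. Capitals mark matches to the GC box GGGCGG and to the E2F-type motif TTTNGCGC, searched on both strands.
Cdkn2a, ARF start: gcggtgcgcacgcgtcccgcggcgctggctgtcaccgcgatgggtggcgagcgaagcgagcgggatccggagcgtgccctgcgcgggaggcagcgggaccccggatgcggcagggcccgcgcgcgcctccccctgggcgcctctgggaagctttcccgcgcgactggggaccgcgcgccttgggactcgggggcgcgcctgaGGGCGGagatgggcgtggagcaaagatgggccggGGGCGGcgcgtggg
Cdkn2a, p16INK4a start: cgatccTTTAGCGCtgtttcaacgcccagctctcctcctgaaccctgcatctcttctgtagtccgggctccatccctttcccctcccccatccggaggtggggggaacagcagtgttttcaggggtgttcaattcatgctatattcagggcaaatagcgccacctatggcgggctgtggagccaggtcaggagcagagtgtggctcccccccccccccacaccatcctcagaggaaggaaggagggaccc
Cdkn2b: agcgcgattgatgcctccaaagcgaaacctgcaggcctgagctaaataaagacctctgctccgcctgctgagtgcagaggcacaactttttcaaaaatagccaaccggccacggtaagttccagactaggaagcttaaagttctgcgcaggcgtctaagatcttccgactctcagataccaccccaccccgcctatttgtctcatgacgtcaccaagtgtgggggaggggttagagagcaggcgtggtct
The ARF window held 2 GC boxes, 40 CpG dinucleotides and 78.4% G + C. The p16INK4a window held 1 E2F-type match, 7 CpG and 60% G + C, and the Cdkn2b window neither motif, 12 CpG and 53.6% G + C. Among 32851 RefSeq windows of the same length, 32.7% held a GC box and 1.13% the E2F-type motif. The 3 windows thus share neither motif, and a match describes letters only.

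The lack of a sorted cell entry was set against the genes around this locus, since CDKN2A is often deleted in mesothelioma together with CDKN2B and MTAP. The 12 nearest protein-coding genes, 6 on each side, and Cdkn2a itself were all listed for whole tumours. There 4 of the 13 were at 0 in every library (Ifna6, Ifna5, Ifna1 and Izumo3), and 6 averaged at least 1 TPM. Of those 6, Mtap, Cdkn2a and Cdkn2b had no sorted entry, whereas Dmrta1, Elavl2 and Tusc1 had one. The 3 without an entry are adjacent to each other on the chromosome.

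Mtap encodes methylthioadenosine phosphorylase of the methionine salvage pathway and lies next to Cdkn2a. It averaged 8.14 ± 2.42 TPM in pleural (SD, n = 6), 8.24 ± 0.597 TPM in peritoneal and 8.19 ± 0.760 TPM in subcutaneous whole tumours (n = 5 each). It was not called in any of the 3 whole tumour comparisons (log2FC -0.05 to 0.01). Of 1841 genes with a whole tumour mean of 5 to 10 TPM, 82.2% had a sorted entry, and so did 27.5% of the 1665 genes at 1 to 2 TPM, the range of Cdkn2a, Cdkn2b and Dmrta1. A missing entry gives no level: every entry of the sorted table exceeded 1 TPM in at least 1 library, with the lowest maximum at 1.26 TPM. Dmrta1, on the far side of Cdkn2b, averaged 5.18 ± 2.56 TPM in pleural, 2.43 ± 1.09 TPM in peritoneal and 5.17 ± 2.38 TPM in subcutaneous sorted cells (SD, n = 5 each). Tusc1, the outermost gene on that side, averaged 27.1 ± 3.00, 23.9 ± 1.45 and 25.9 ± 2.58 TPM in pleural, peritoneal and subcutaneous sorted cells. Whether the locus is deleted in AB1-mCherry was not tested, since RNA tables give no copy number.

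**Figure D2:**
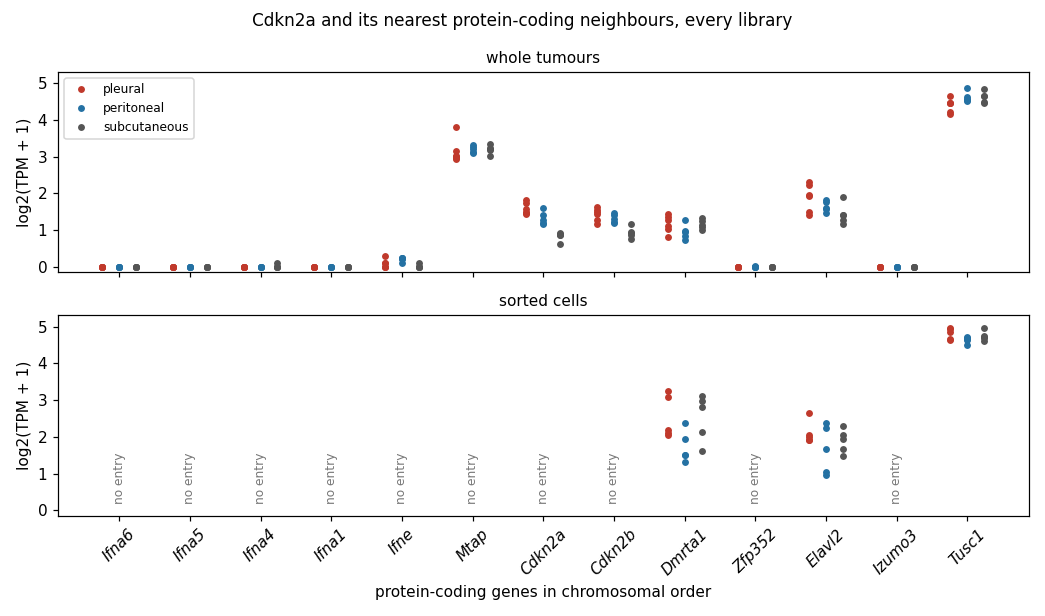
Log2(TPM + 1) of Cdkn2a and 12 neighbouring protein-coding genes in chromosomal order, in every whole tumour (top) and sorted library (bottom); points are libraries coloured by site, and "no entry" marks genes without a row in the sorted cell table. Mtap, Cdkn2a and Cdkn2b, with whole tumour means of 8.19, 1.48 and 1.39 TPM, have no sorted entry, and Dmrta1, Elavl2 and Tusc1 beyond them have one.

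Trp53 encodes the transcription factor p53. Its whole tumour level was nearly the same at the 3 sites, with a lowest, median and highest pleural value of 130, 142 and 151 TPM. The peritoneal tumours held 144, 141, 138, 134 and 142 TPM, and the subcutaneous tumours 142, 135, 143, 138 and 138 TPM. The sites overlapped, with means of 141 ± 7.92 TPM in pleural (SD, n = 6), 140 ± 4.08 TPM in peritoneal (n = 5) and 139 ± 3.24 TPM in subcutaneous tumours (n = 5). The log2FC against subcutaneous tumours was 0.02 for pleural (95% interval -0.06 to 0.10, limma adjusted p = 0.758) and 0.00 for peritoneal ones (-0.08 to 0.09, adjusted p = 0.961).

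Sorted cells gave another picture for Trp53. Peritoneal sorted cells held 142, 132, 135, 150 and 166 TPM, above the 120, 128, 116, 121 and 110 TPM of pleural cells and the 109, 119, 122, 116 and 109 TPM of subcutaneous cells. The peritoneal group overlapped neither of the other groups, which overlapped each other. Means were 119 ± 6.87 TPM in pleural, 145 ± 13.6 TPM in peritoneal and 115 ± 5.74 TPM in subcutaneous cells (SD, n = 5 each). Peritoneal cells were 1.26 times as high as subcutaneous cells (log2FC 0.32, SE 0.07, limma adjusted p = 0.0100), and this was called in all 25 alternative fits. Trp53 was the only 1 of the 6 listed genes called there, against 11.1% of the 12357 genes tested (4.75% higher). Groups without overlap were seen for 9.48% of them. Pleural cells were lower than peritoneal cells (log2FC -0.28, SE 0.07, adjusted p = 0.0261), again 1 of 6 genes against 9.96% of tested genes (5.51% lower). The call between pleural and peritoneal cells was lost without pleural replicate 3, 4 or 5 (adjusted p 0.0535, 0.0528 and 0.0647) and without peritoneal libraries 2 and 5 together (log2FC -0.25, adjusted p = 0.0503). It was also lost under median-of-ratios scaling (adjusted p = 0.0792) and in a fit of only those 2 sites (adjusted p = 0.0631). Between pleural and subcutaneous cells 0 of 6 genes were called by limma and 0 had an unadjusted p below 0.05, against 1.64% of tested genes called (0.397% higher and 1.25% lower). All 6 overlapped between those sites, where 3.11% of tested genes did not. The Trp53 difference between peritoneal and subcutaneous cells stayed at 0.30 without peritoneal libraries 2 and 5 (adjusted p = 0.0207) and at 0.31 without subcutaneous libraries 1 and 2 (adjusted p = 0.0427).

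Markers of other cells differed between sorted libraries of the sites as well. In peritoneal against subcutaneous cells, 4 of 5 endothelial markers, 4 of 8 fibroblast markers and 1 of 9 leukocyte markers tested were lower and 0 higher, while of 4 mesothelial markers 2 were higher and 1 lower. In pleural against subcutaneous cells 1 endothelial, 3 fibroblast, 1 leukocyte and 1 mesothelial marker were lower and 0 higher. Between pleural and peritoneal cells 0 endothelial, fibroblast or leukocyte markers were called by limma, and of the mesothelial ones 1 was higher and 1 lower. Endothelial markers summed to 4.08 to 21.5 TPM in pleural, 3.25 to 11.5 TPM in peritoneal and 18.4 to 32.0 TPM in subcutaneous cells. Mitochondrial transcripts took 2.91 to 4.499% of TPM in peritoneal sorted libraries, against 5.13 to 6.63% in the other sorted libraries. The part of these in the results for Trp53, Nf2, Lats1 and Lats2 was not tested.

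**Figure D3:**
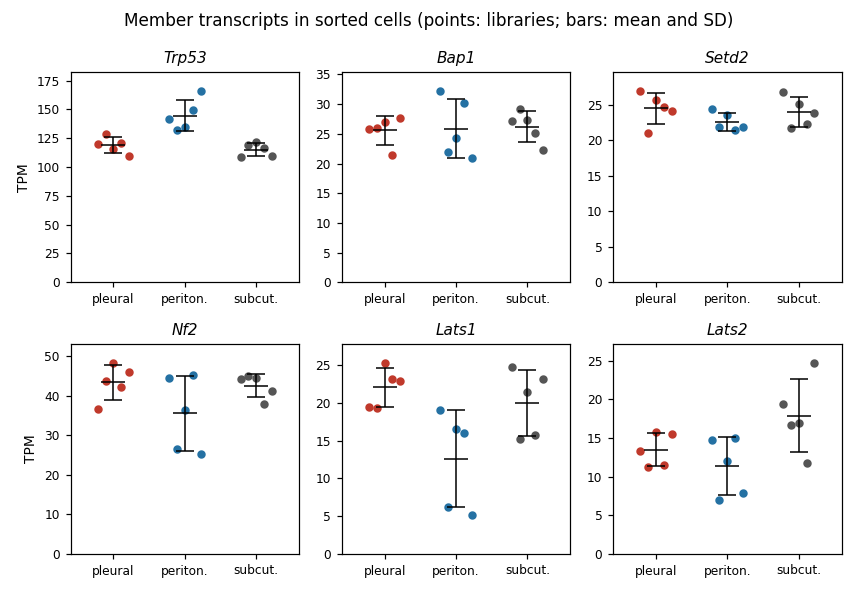
TPM of the 6 genes with a sorted cell entry, in every sorted library by site (n = 5 each); points are libraries, bars the mean and SD, and each vertical axis starts at 0. Trp53 lies between 132 and 166 TPM in peritoneal cells, above the other groups, and 2 peritoneal libraries lie at 6.24 and 5.20 TPM for Lats1.

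The chromatin regulators Bap1 and Setd2 varied little by site. Bap1 had a lowest, median and highest value of 34.2, 34.8 and 36.5 TPM in pleural whole tumours. It measured 39.1, 41.2, 35.2, 31.6 and 34.1 TPM in peritoneal tumours and 31.0, 31.5, 32.9, 37.2 and 33.3 TPM in subcutaneous ones. The groups overlapped, and neither pleural (log2FC 0.08, 95% interval -0.05 to 0.21, limma adjusted p = 0.393) nor peritoneal tumours (0.12, -0.02 to 0.26, adjusted p = 0.220) passed the test against subcutaneous ones. In sorted cells Bap1 averaged 25.6 ± 2.45 TPM in pleural, 25.9 ± 5.01 TPM in peritoneal and 26.2 ± 2.601 TPM in subcutaneous cells (SD, n = 5 each). Its log2FC in peritoneal against subcutaneous cells was -0.03 (limma adjusted p = 0.888). Without peritoneal libraries 2 and 5 it was 0.13 (adjusted p = 0.499). All 15 sorted libraries lay between 20.9 and 32.2 TPM, so the Bap1 transcript was present in each.

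Setd2 averaged 31.8 ± 3.32 TPM in pleural (SD, n = 6), 30.4 ± 2.15 TPM in peritoneal (n = 5) and 30.2 ± 2.94 TPM in subcutaneous whole tumours (n = 5). The sorted cell means were 24.5 ± 2.21, 22.6 ± 1.25 and 23.96 ± 2.12 TPM at the pleural, peritoneal and subcutaneous sites (n = 5 each). Its ranges overlapped between all sites, in both tables. The log2FC against subcutaneous samples was 0.07 for pleural and 0.01 for peritoneal whole tumours, and 0.03 for pleural and -0.08 for peritoneal sorted cells, with limma adjusted p between 0.546 and 0.969.

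Nf2, the merlin gene, was level in whole tumours, with means of 47.6 ± 2.88 TPM in pleural (SD, n = 6), 48.8 ± 2.27 TPM in peritoneal (n = 5) and 47.5 ± 2.19 TPM in subcutaneous tumours (n = 5). Its log2FC was 0.00 for pleural (95% interval -0.10 to 0.10) and 0.04 for peritoneal against subcutaneous tumours (-0.07 to 0.14). In sorted cells it measured 36.5, 43.7, 48.3, 42.1 and 46.0 TPM at the pleural, 44.4, 26.6, 36.5, 45.2 and 25.1 TPM at the peritoneal and 44.2, 44.8, 44.5, 37.9 and 41.3 TPM at the subcutaneous site. Peritoneal libraries 2 and 5 were the lowest of all 15, and the groups overlapped. Peritoneal cells did not differ from subcutaneous cells past the threshold (log2FC -0.29, 95% interval -0.60 to 0.02, limma adjusted p = 0.206), and without those libraries the log2FC was -0.02. Pleural against peritoneal cells, which rests on the same libraries, was at a log2FC of 0.31 (95% interval 0.00 to 0.63, adjusted p = 0.173).

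Lats1 had a lowest, median and highest value of 17.7, 20.7 and 24.3 TPM in pleural whole tumours. Peritoneal tumours held 19.3, 18.2, 17.8, 18.2 and 19.3 TPM, and subcutaneous tumours 17.9, 16.5, 19.3, 19.0 and 18.5 TPM. Pleural tumours spread more widely than the others and overlapped them, and the test against subcutaneous tumours was not passed (log2FC 0.17, 95% interval 0.02 to 0.31, limma adjusted p = 0.120). Without pleural replicate 3, the lowest of its group, the log2FC was 0.21 and passed (adjusted p = 0.0459).

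The widest spread of any member within a site was that of Lats1 in peritoneal sorted cells, with a coefficient of variation of 50.9%. Pleural cells held 19.5, 19.4, 25.4, 23.2 and 23.0 TPM. Peritoneal cells held 19.1, 6.24, 16.6, 16.04 and 5.20 TPM, and subcutaneous cells 24.8, 15.2, 21.4, 15.7 and 23.2 TPM. Every pleural value was above every peritoneal one, while the highest of the peritoneal values lay within the subcutaneous range. Means were 22.1 ± 2.58 TPM in pleural, 12.6 ± 6.43 TPM in peritoneal and 20.1 ± 4.38 TPM in subcutaneous cells (SD, n = 5 each). Neither pleural against peritoneal (log2FC 0.91, 95% interval 0.30 to 1.52, limma adjusted p = 0.0555) nor peritoneal against subcutaneous cells (-0.76, -1.37 to -0.15, adjusted p = 0.0961) passed the test. Without peritoneal libraries 2 and 5, the 2 lowest values, the log2FC was 0.34 for pleural against peritoneal (adjusted p = 0.207) and -0.19 for peritoneal against subcutaneous cells (adjusted p = 0.485). Among all tested genes, 9.57% had groups without overlap between pleural and peritoneal cells.

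Lats2, the paralogue of Lats1, averaged 17.6 ± 2.36 TPM in pleural (SD, n = 6), 17.4 ± 2.62 TPM in peritoneal (n = 5) and 16.3 ± 1.64 TPM in subcutaneous whole tumours (n = 5), with all sites overlapping. In sorted cells it measured 13.3, 11.3, 15.8, 11.5 and 15.6 TPM at the pleural, 14.7, 6.99, 12.0, 15.1 and 7.84 TPM at the peritoneal and 19.4, 16.6, 16.9, 11.7 and 24.7 TPM at the subcutaneous site. The same peritoneal libraries 2 and 5 were lowest, and the groups overlapped. Peritoneal cells were at a log2FC of -0.64 to subcutaneous cells (95% interval -1.09 to -0.18, limma adjusted p = 0.0660), or -0.31 without those libraries (adjusted p = 0.322). Pleural cells were at -0.36 (95% interval -0.81 to 0.10, adjusted p = 0.604).

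**Figure D4:**
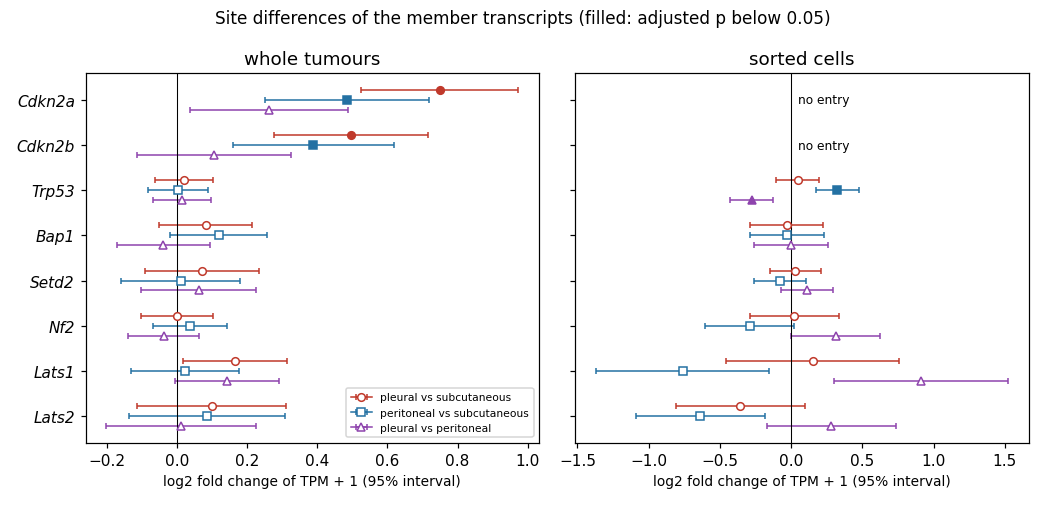
Log2 fold change of TPM + 1 with its 95% interval for each gene, in whole tumours (left) and sorted cells (right), for pleural against subcutaneous, peritoneal against subcutaneous and pleural against peritoneal; filled symbols passed an adjusted p below 0.05, and the 2 panels have different horizontal scales. Cdkn2a (0.75 and 0.49) and Cdkn2b (0.50 and 0.39) are filled in whole tumours and Trp53 (0.32 and -0.28) in sorted cells.

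Partners of these genes were read from 8 pathway lists. In pleural against subcutaneous whole tumours, 9.40% of all tested genes were called higher and 3.40% lower, and the median log2FC of all tested genes was 0.07. Of 19 Hippo kinases and adaptors, 3 were higher and 0 lower (median log2FC 0.10). These were Sav1, the scaffold of the MST kinases (73.1 ± 2.93 against 63.3 ± 4.19 TPM, log2FC 0.21, limma adjusted p = 0.00886), Ptpn14, a phosphatase that binds YAP (log2FC 0.31), and the angiomotin Amotl1 (0.27). Of 8 Hippo effectors, 2 were higher and 0 lower (median 0.01). Yap1, the transcriptional coactivator held back by LATS kinases, measured 34.1 ± 1.35 TPM in pleural (SD, n = 6) against 29.3 ± 0.761 TPM in subcutaneous tumours (n = 5; log2FC 0.21, adjusted p = 0.00743). Tead1, its DNA-binding partner, was higher by 0.32 (adjusted p = 0.0197). Sav1 and Yap1 were called in all 25 alternative fits, and the counts of the 2 lists fell to 1 and 1 without subcutaneous replicate 2, while the kinase and adaptor count was 5 without peritoneal replicate 2.

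In peritoneal against subcutaneous whole tumours, 8.52% of tested genes were higher and 3.64% lower. There 1 of the 19 Hippo kinases and adaptors was higher (Amotl1, log2FC 0.25) and 1 lower, the LIM protein gene Ajuba (-0.18). Of the 8 effectors Yap1 was higher (log2FC 0.22, limma adjusted p = 0.00645) and Vgll3, a TEAD cofactor, was lower (-0.69, adjusted p = 0.0468). Yap1 was called with each library left out in turn, whereas Vgll3 and Amotl1 were each called in 4 and Ajuba in 7 of 16 such fits. Pleural and peritoneal tumours did not differ past the threshold in any gene of the 8 lists, in a comparison that called 8 of 15054 genes.

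Of 24 p53 target genes tested, 5 were called higher and 0 lower in pleural whole tumours against subcutaneous ones (median log2FC 0.13), and 6 higher and 0 lower in peritoneal ones (median 0.11). Among all tested genes, 9.40% were higher and 3.40% lower in pleural tumours, and 8.52% higher and 3.64% lower in peritoneal ones. The median log2FC of all tested genes was 0.07 in both comparisons. Sesn2, a stress-induced regulator of mTORC1, measured 24.8 ± 3.23 TPM in pleural, 23.6 ± 1.94 TPM in peritoneal and 18.0 ± 1.54 TPM in subcutaneous tumours (SD, n = 6, 5 and 5), with log2FCs of 0.44 and 0.38 (limma adjusted p = 0.00615 and 0.0152). Trp53inp1, a p53-induced nuclear protein, was higher by 0.47 in pleural (adjusted p = 0.0285) and by 0.59 in peritoneal tumours (adjusted p = 0.0131). Cdkn1a (p21), the best known target, was at log2FC 0.18 in pleural and 0.07 in peritoneal tumours and passed neither test (adjusted p = 0.146 and 0.595). The pleural count was 3 without subcutaneous replicate 2 or pleural replicate 2. The peritoneal count was 2 when subcutaneous tumour 5 was left out, and 3 when subcutaneous tumour 2 or peritoneal tumour 1, 2 or 3 was. Of 8 p53 regulators, Atm (0.56) and Trp53bp1 (0.43), sensors of DNA breaks, were higher in pleural tumours, and both calls were lost without subcutaneous replicate 1, 2 or 5 or pleural replicate 2 or 4. Atm was called in 4 and Trp53bp1 in 9 of 16 fits with a library left out. Trp53bp1 was also the 1 regulator higher in peritoneal tumours (0.46).

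The list of CDK4, CDK6 and RB genes, on which p16INK4a and p15INK4b act, had 0 of 15 genes called in either serosal comparison with subcutaneous whole tumours (limma). Cdk4 measured 663 ± 34.0 TPM in pleural, 708 ± 38.1 TPM in peritoneal and 678 ± 24.9 TPM in subcutaneous tumours (SD, n = 6, 5 and 5). Rb1 measured 20.5 ± 2.84 TPM in pleural, 22.5 ± 2.45 TPM in peritoneal and 20.4 ± 2.40 TPM in subcutaneous tumours. In sorted cells E2f3 was the 1 of 15 called, higher in pleural than in peritoneal cells (log2FC 0.48, limma adjusted p = 0.0436), a call lost in most fits with a library left out and without peritoneal libraries 2 and 5 (0.28, adjusted p = 0.200).

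Of 9 tested partners of BAP1, 3 were higher in pleural whole tumours against subcutaneous ones: Ogt (log2FC 0.58), the O-GlcNAc transferase, Asxl2 (0.33), a BAP1 cofactor, and the histone demethylase Kdm1b (0.19). That count was 0 without subcutaneous replicate 2 or pleural replicate 2, and 1 without subcutaneous replicate 1, 4 or 5 or pleural replicate 4 or 5. In peritoneal tumours Kdm1b alone of the 9 was higher (7.25 ± 0.345 against 5.72 ± 0.290 TPM in subcutaneous tumours, SD, n = 5 each; log2FC 0.30, limma adjusted p = 0.00641), called in all 25 alternative fits. Of 11 genes that write, read or erase H3K36 methylation, 3 were higher in pleural tumours (Setd5 0.30, Ash1l 0.28 and Kdm2b 0.24) and 3 in peritoneal ones (Kdm2b 0.30, Kdm4a 0.24 and Psip1 0.22), with 0 lower. The pleural count was 1 without subcutaneous replicate 2 or pleural replicate 2 or 4, and 5 without peritoneal replicate 2 or pleural replicate 3. Of 12 other genes recurrently mutated in mesothelioma, 4 were higher in pleural tumours, among them Traf7 (log2FC 0.23) and Setdb1 (0.21), and Setdb1 (0.21) was the 1 higher in peritoneal tumours. That pleural count was 1 without subcutaneous replicate 2 or pleural replicate 2, 4 or 7. In each list more genes missed the threshold than passed it. Among all tested genes, 9.40% were higher and 3.40% lower in pleural tumours, and 8.52% higher and 3.64% lower in peritoneal ones. Median-of-ratios scaling turned this into 721 higher and 845 lower genes in pleural and 708 and 849 in peritoneal tumours. The lack of lower calls is therefore not read as a trait of these lists.

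**Figure D5:**
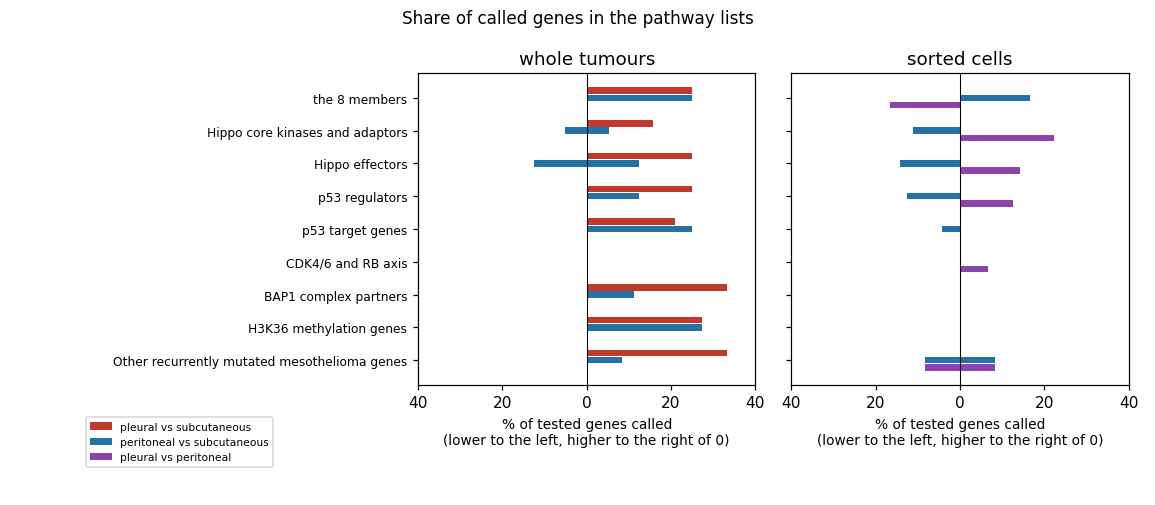
Percentage of tested genes called in each pathway list and among the 8 genes, in whole tumours (left) and sorted cells (right); bars to the right of 0 are genes called higher and bars to the left genes called lower in the first-named site. In pleural against subcutaneous whole tumours 3 of 19 Hippo kinases and adaptors and 5 of 24 p53 targets are higher. The share of all tested genes called higher there is 9.40%. No list has a called gene in pleural against subcutaneous sorted cells.

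In sorted cells, pleural against subcutaneous gave 0 called genes in all 8 lists by limma. Peritoneal sorted cells differed from the others in a few genes of these lists. Among all tested genes, 11.1% were called between peritoneal and subcutaneous cells and 9.96% between pleural and peritoneal cells. Between pleural and subcutaneous cells the share was 1.64%. Wwtr1, which encodes the YAP paralogue TAZ, measured 46.8 ± 6.92 TPM in pleural, 32.1 ± 6.56 TPM in peritoneal and 51.6 ± 5.42 TPM in subcutaneous cells (SD, n = 5 each). It was lower in peritoneal than in subcutaneous cells (log2FC -0.68, limma adjusted p = 0.00572), also without peritoneal libraries 2 and 5 (-0.47, adjusted p = 0.0312). Of 18 Hippo kinases and adaptors, 2 were lower and 0 higher in peritoneal than in subcutaneous cells, Amotl2 (-0.72) and Frmd6 (-0.63), against 6.33% of tested genes lower. That count was 0 without peritoneal libraries 2 and 5, without peritoneal library 2 alone, and without subcutaneous library 1, 3, 4 or 5. It was 1 without peritoneal library 5, 3 without peritoneal library 3 or 4 and 5 without peritoneal library 1. Frmd6, Amotl2, Mob1b and Map4k4 were higher in pleural than in peritoneal cells (log2FC 0.75, 0.68, 0.67 and 0.55; 4 of 18, against 4.45% of tested genes higher), and the count was 1 without peritoneal libraries 2 and 5. The count was 5 without peritoneal library 1, 1 without peritoneal library 2 alone, 2 without peritoneal library 5 or pleural library 1, 3 or 5, and 0 without pleural library 4.

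Mdm2, the ubiquitin ligase that degrades p53 and is itself a p53 target, had its lowest mean in peritoneal sorted cells. It measured 78.6 ± 10.8 TPM in pleural, 45.3 ± 10.1 TPM in peritoneal and 64.7 ± 7.73 TPM in subcutaneous sorted cells (SD, n = 5 each). Pleural cells were above peritoneal cells (log2FC 0.81, limma adjusted p = 0.00786, called in all 25 alternative fits), and peritoneal cells below subcutaneous cells (-0.53, adjusted p = 0.0369). The peritoneal against subcutaneous call was lost without peritoneal libraries 2 and 5 (-0.38, adjusted p = 0.0681) and without subcutaneous library 1, 3, 4 or 5 (adjusted p 0.0928, 0.0655, 0.0508 and 0.0882). Of 23 p53 targets tested, Trp53inp1 was lower in peritoneal than in subcutaneous cells (log2FC -0.70), a call lost without peritoneal library 2 or 5 or subcutaneous library 1, 3 or 5, and 0 were called between pleural and peritoneal cells. Ddx3x, an RNA helicase gene mutated in mesothelioma, measured 249 ± 20.3 TPM in pleural, 134 ± 42.6 TPM in peritoneal and 251 ± 50.0 TPM in subcutaneous cells. It differed between pleural and peritoneal cells (log2FC 0.95) and between peritoneal and subcutaneous cells (-0.94), and Ddx51, another helicase gene, went the other way (-0.59 and 0.47). The Ddx51 call against subcutaneous cells was lost without subcutaneous library 3, 4 or 5 or peritoneal library 4. Without peritoneal libraries 2 and 5, Ddx3x was at 0.60 and -0.59 and Ddx51 at -0.66 and 0.54, and all 4 differences were still called.

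The genes whose pattern was most like that of a member were found by Pearson's r of log2(TPM + 1) over the libraries of a table, as a description. All libraries of a site share that site, so r rises for any pair of genes that differ by site. Over the 16 whole tumours Cdkn2a was most like Fam91a1 (r = 0.95), Ints2 (0.93) and Esco2 (0.93), and Cdkn2b was like Abhd6 (0.89) and Syde1 (0.87). Neither was among the 3 nearest of the other. Lats1 was most like Sipa1l1 (0.95), Bap1 most like Scarf2 (0.92), Nf2 most like Hdac6 (0.88), Lats2 most like Aak1 (0.86), Trp53 most like Tcf19 (0.84) and Setd2 most like Son (0.83). Over the 15 sorted libraries Lats1 was most like Otud4, Zfp609 and Brd1 (r = 0.99 each), Nf2 most like Wwp1 (0.97) and Trp53 most like Tonsl (0.94). Bap1, Lats2 and Setd2 were there most like Zadh2 (0.92), Col4a4 (0.92) and Tbc1d4 (0.83).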

How the data were processed

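RNA was measured in 16 whole tumours and 15 sorted cell samples as 50 bp single-end reads, per the labels' protocols, and the RNA kit for sorted cells was another than that for tumours. The authors deposited TPM per gene, made with kallisto on GRCm39 per the submitters' processing notes. No source used here gives the versions, the annotation or the filter behind the shorter sorted cell table. Each whole tumour sums to 1000000 TPM and each sorted library to 996124 to 998055 TPM. The sorted totals include 17 date-named entries, which were left out of tests. Groups and replicate numbers come from the labels' titles. The library names of peritoneal whole tumours 2, 3 and 4 carry the numbers 3, 4 and 5, and a block by those numbers was not run. With limma 3.58.1 in R 4.3.3, log2(TPM + 1) was fitted for the 3 sites of a table in 1 model with an intensity trend. The test covered genes reaching 1 TPM in 5 or more libraries (15054 and 12357), and p-values were adjusted by Benjamini-Hochberg over all of them. Named genes were all 8 members, up to 3 called genes per list with the largest change, the 6 nearest protein-coding genes on each side of Cdkn2a, and the genes most like each member, of which the rule takes 3 and the text gives the nearest or a few. One of them is not reported here. Cdkn1a, Cdk4, Rb1 and Map4k4 were named after their values were seen. The members and lists were chosen with earlier results of these data known. Also tried were no filter, a 5 TPM filter, a pseudocount of 0.1, median-of-ratios scaling, quantile normalization, a fit of 2 sites, robust empirical Bayes, the replicate block, and each library left out. The fits without peritoneal sorted libraries 2 and 5, subcutaneous sorted libraries 1 and 2, or pleural tumours 3 and 5 were chosen after seeing the data. The fit was checked on simulated data. Gene order and promoters come from RefSeq on GRCm38.p6, another build than GRCm39, so only promoter windows carry coordinates.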

Additional observations from a re-analysis of the deposited data

Results flagged for a closer look

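Of 63 groups of 5 or 6 libraries checked for a value standing apart from the rest, 7 held one, where chance gives about 1 in 20 groups. Among the members, Cdkn2a was lowest in subcutaneous whole tumour 2 at 0.537 TPM, Lats2 was highest in peritoneal whole tumour 3 at 22.1 TPM, and Bap1 was lowest in pleural sorted library 4 at 21.4 TPM. Among the neighbours of Cdkn2a, Mtap reached 13.0 TPM in pleural whole tumour 3, Elavl2 reached 5.26 TPM in pleural sorted library 3, and Tusc1 reached 28.5 TPM in peritoneal whole tumour 2 and stood at 21.4 TPM in peritoneal sorted library 4. The low Lats1 values of peritoneal sorted libraries 2 and 5 did not stand out by this measure, which looks for a single value apart from its group.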

How the results depend on the processing

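Over 1044 recomputed fold changes of the members in 42 comparisons, 1011 kept their side of the threshold, 18 lost a call and 15 gained one. Of the 1011, 957 also kept their sign, and 54 values in 16 comparisons took the other sign, 0 of them called in either fit and all between -0.07 and 0.13. These were 33 fits with a library left out, 7 with median-of-ratios scaling (such as Nf2 in pleural against subcutaneous tumours, at -0.07), 7 with quantile normalization and others, so that no direction is given for those genes. Lats2 in pleural against peritoneal sorted cells was at 0.28, and at -0.05 without peritoneal libraries 2 and 5. Cdkn2a stayed called between pleural and subcutaneous tumours in all 24 alternatives in which it could be tested (log2FC 0.70 to 1.25, the highest with a pseudocount of 0.1), and so did Cdkn2b (0.43 to 0.83). These alternatives reuse the same tumours and are not independent support. All but the fit without a filter also use the 1 TPM filter, which both genes passed only through serosal tumours. Of the 2 members called between peritoneal and subcutaneous tumours, 1 was left without a filter and 1 under quantile normalization, and 0 under the 5 TPM filter, where neither Cdkn2a nor Cdkn2b is tested, which also left 0 between pleural and subcutaneous tumours. Leaving out each library in turn gave 1 to 2 there, 2 to 3 between pleural and subcutaneous tumours, and, in sorted cells, 1 to 3 between peritoneal and subcutaneous and 0 to 2 between pleural and peritoneal cells. The 1 member called in sorted peritoneal against subcutaneous cells became 2 under median-of-ratios scaling and 3 under quantile normalization, which added Lats1 and Lats2. The 1 member between pleural and peritoneal cells became 2 under the 5 TPM filter or quantile normalization and 0 in a fit of only the 2 sites or without peritoneal libraries 2 and 5, and under median-of-ratios scaling Lats1 was called (adjusted p = 0.0249) and Trp53 was not (0.0792).

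Replicate numbers, taken from mouse names, did not pair the libraries: same-numbered libraries of different sites correlated in their deviations between -0.38 and 0.26 (whole tumours) or -0.30 and 0.35 (sorted cells), and each library correlated best with its own number in 7 of 28 and 7 of 30 cases. The labels name different mice at each site, so a shared number does not mark a shared animal. With the replicate block, 0 members were called between peritoneal and subcutaneous tumours (Cdkn2a adjusted p = 0.0708, Cdkn2b 0.0594), and in sorted pleural against peritoneal cells Lats1 was called (0.0492) and Trp53 was not (0.0530). Over all genes the block called 849 in pleural and 656 in peritoneal against subcutaneous tumours, in place of 1927 and 1831. Median-of-ratios scaling moved the share of calls that were higher to 46.0% from 73.4% in pleural and to 45.5% from 70.1% in peritoneal against subcutaneous tumours. Quantile normalization gave 48.4% and 48.2%. For most list genes, calls between 0.01 and 0.05 depended on single libraries. What limits these results is the low level of Cdkn2a and Cdkn2b, the unknown depth, and the unstated filter of the sorted table.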
